A study of Mus musculus with 54 samples.

Results

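Lost CTCF-only peaks outside H3K4me3 chromatin are CTCF sites of wild-type mouse testis that carried neither BORIS nor H3K4me3 and that were missing from the CTCF peak list of the compound mutant. They were selected on 4 measured peak lists, and each is a peak of the WT CTCF list that overlapped, by at least 1 bp, no WT BORIS peak, no WT H3K4me3 peak and no CM CTCF peak (mm9). The rule was met by 11128 of the 34625 WT CTCF peaks. Because the rule used these 4 lists, the absence of CM CTCF, of BORIS and of WT H3K4me3 is what selected the peaks and is not a finding.

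The study compared WT C57BL/6 mice with CM mice (Ctcf+/- Boris-/-, named DKO in the sample labels), all 3 months old. CTCF HET (Ctcf+/- with intact Boris) and BORIS KO (Ctcf+/+ Boris-/-) mice were the single mutants. Germ cell-enriched suspensions of testis, each pooled from 4 mice, were used for ChIP-seq of CTCF, BORIS, RNA polymerase II (Pol2) and H3K4me3 and, as whole testis, for RNA-seq with 3 libraries per genotype. RNA-seq was also made from purified round spermatids and spermatocytes, with 3 libraries per genotype except 2 for WT spermatocytes. The alleles were knockouts of the whole animal, carried by germ cells and somatic cells of the testis alike. Each deposited peak list stands for 2 ChIP replicates, or for 1 library in the case of H3K4me3, so peak counts have no replicate error and the intervals given for shares (95%, Wilson for a share and Newcombe for a difference) cover counting error only. The depth behind the peaks is unknown.

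CTCF is a zinc finger protein that binds a long, conserved DNA motif, stops cohesin and so anchors chromatin loops and insulates domains. BORIS, encoded by Ctcfl, is its germ cell paralogue with a nearly identical DNA-binding domain. H3K4me3 marks active and poised promoters, most of them in CpG islands, so CTCF peaks outside it are largely the sites of introns, exons and intergenic DNA at which CTCF is best known as a loop anchor.

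The sites with the highest WT signal in the set are printed first, because their sequences show what a strong lost site looked like. All 6 highest peaks carried a match to the CTCF motif. Sequences are from the mm9 reference, 5′ to 3′ on the strand that holds the match, and capitals mark the 20 bases matched by a CTCF weight matrix built from the 2000 highest WT CTCF peaks (2 of them members), with 20 bases on each side.
Tmem132c intron (chr5:127821700-127821759, minus strand): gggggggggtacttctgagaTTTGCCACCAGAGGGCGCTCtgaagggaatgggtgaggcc
Myo7a intron (chr7:105200661-105200720, plus strand): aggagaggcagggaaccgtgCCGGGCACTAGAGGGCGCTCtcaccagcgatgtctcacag
Ifltd1 intron (chr6:145369122-145369181, minus strand): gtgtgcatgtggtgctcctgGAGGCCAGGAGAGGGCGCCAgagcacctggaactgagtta
Epb4.9 intron (chr14:71017941-71018000, plus strand): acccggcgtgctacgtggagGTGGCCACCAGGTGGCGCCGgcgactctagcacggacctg
intergenic, nearest start Tnfrsf21 (chr17:43101748-43101807, plus strand): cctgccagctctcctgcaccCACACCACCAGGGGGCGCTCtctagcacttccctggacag
Camta1 intron (chr4:150676434-150676493, minus strand): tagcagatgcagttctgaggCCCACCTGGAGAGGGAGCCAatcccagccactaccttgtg
Their WT heights were 3431, 3136, 2995, 2935, 2780 and 2773, in the order of the lines. Their matrix scores were 23.6, 19.9, 20.5, 26.2, 22.7 and 12.7 bits, against a threshold of 11.3 bits that only 1% of the windows 2 kb away reached. Myo7a encodes an unconventional myosin of the inner ear, Epb4.9 an actin-bundling protein and Camta1 a calmodulin-binding transcription activator. None of the 6 was overlapped by a Pol2 peak in either genotype or by a CM H3K4me3 peak. For comparison, the 2 highest kept CTCF-only peaks with a match outside H3K4me3, of heights 4361 and 4343, read as follows.
kept, nearest start Zfp507 (chr7:36687035-36687094, plus strand): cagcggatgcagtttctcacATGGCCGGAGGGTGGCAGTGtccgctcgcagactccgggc
kept, nearest start n-R5s151 (chr7:17048737-17048796, minus strand): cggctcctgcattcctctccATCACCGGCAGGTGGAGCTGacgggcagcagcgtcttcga
Their scores of 13.2 and 16.8 bits lay inside the range of the 6 lost sites.

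Such strong sites were rare among the lost peaks. The median WT height was 167 (quartiles 121 and 296, range 100 to 3431), against 877 (427 and 1651) in the 14514 kept CTCF-only peaks outside WT H3K4me3, the class most like them. A height of 200 or less was found in 59.5% of the lost peaks and in 8.82% of the kept peaks. Height is a peak signal of the WT list, and since weak peaks fall below the limit of a second list more easily, this difference comes with the rule. Both CTCF lists end at a height of 100, at which 151 of the lost peaks lay, so a peak that fell below 100 in CM counts as lost even where CTCF remained. Heights reached 4391 in the WT list (median 491) and 968 in the CM list (median 316), and since their normalization is not stated, a height of 100 may not mean the same in both. The lost peaks were also narrower, with a median width of 292 bases against 440.0.

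**Figure D1:**
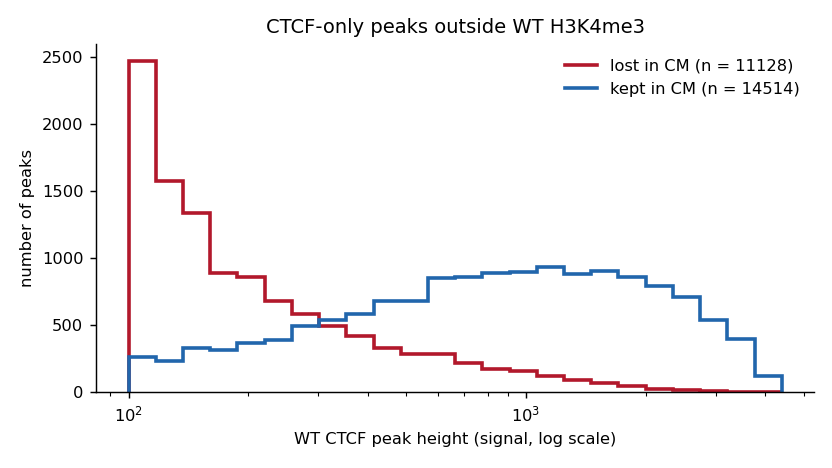
Number of CTCF-only peaks outside WT H3K4me3 (vertical axis) by WT CTCF peak height (horizontal axis, log scale) for the 11128 peaks lost in CM (red) and the 14514 kept (blue). The lost peaks pile up next to the lower limit of 100, with a median of 167, and the kept peaks centre on 877.

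At the edge of the rule, 101 lost peaks lay within 100 bases of a CM CTCF peak, the nearest 21 bases away, with a median height of 150.0 (100 to 978). Just outside it, 2 WT peaks counted as kept through an overlap of 20 bases or less (heights 109 and 159). A WT H3K4me3 peak lay within 100 bases of 82 lost peaks, and 10 peaks were left out of the set through an overlap of 20 bases or less with one. A BORIS peak lay within 100 bases of 9.

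Among peaks of similar WT height, the share that was lost fell steeply with height. In the 4 quartiles of WT height (100 to 177, 178 to 491, 492 to 1379 and 1380 to 4391), 5923, 3753, 1264 and 188 CTCF-only peaks outside H3K4me3 were lost. These were 85.8% (84.9 to 86.6), 53.5% (52.3 to 54.6), 18.4% (17.5 to 19.4) and 3.87% (3.36 to 4.45) of such peaks. The quartiles are used below to compare lost and kept peaks at like heights, on measures that the rule did not use.

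The CTCF motif was found less often under the lost peaks than under the kept peaks. The matrix matched within 100 bases centred on the summit in 4206 of 11128 lost peaks (37.8%, 36.9 to 38.7) and in 81.9% of the kept peaks (81.2 to 82.5), a difference of -44.1 points (-45.2 to -43.0). In windows of the same length 2 kb away it matched 1.06% and 0.971%. The core pattern CCNNNAGNNGGC, searched on both strands, gave the same order, with 28.5% and 57.9% at the summits and 1.76% and 1.85% at 2 kb. Where a lost peak held a matrix match, the match was centred within 20 bases of the summit in 65.8% of cases, and 49.6% of matches were on the plus strand. The lost CTCF-only peaks in WT H3K4me3 held a match still less often (15.5%), and the lost CTCF/BORIS peaks more often (48.4%).

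The gap in motif content closed as height rose. From the lowest to the highest quartile, a matrix match was held by 23.3, 48.7, 66.9 and 82.4% of the lost peaks and by 67.8, 75.7, 84.8 and 85.6% of the kept peaks. In the highest quartile the intervals overlapped (76.4 to 87.2 for the 188 lost peaks, 84.6 to 86.6 for the kept peaks). Lost peaks with a match were higher (median 251) than those without one (142). At least 2 core patterns were present in 2.65% of lost peaks and in 5.15% of kept ones.

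The lost peaks were richer in G and C. The mean GC content of 200 bases at the summit was 55% ± 7.79 (SD over 11128 peaks) in lost and 47.7% ± 6.25 in kept peaks, while 2 kb away it was 47.0% and 46.0%. CpG dinucleotides numbered 5.13 per 200 bases in lost and 2.90 in kept peaks on average, against 2.60 and 2.44 at 2 kb. A CpG-rich window (GC of at least 50% and an observed to expected CpG ratio of at least 0.6) was found in 1354 lost peaks (12.2%) and in 2.05% of the kept peaks, a difference of 10.1 points (9.48 to 10.8). GC content was higher in the lost peaks in every quartile of height, with 55.8, 53.6, 55.3 and 58.0% against 44.2, 45.1, 46.7 and 51.5%. Within the quartiles GC content 2 kb away was also higher beside the lost peaks, by less, with 47.3, 46.5, 47.2 and 48.7% against 43.8, 44.6, 45.7 and 47.8%.

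**Figure D2:**
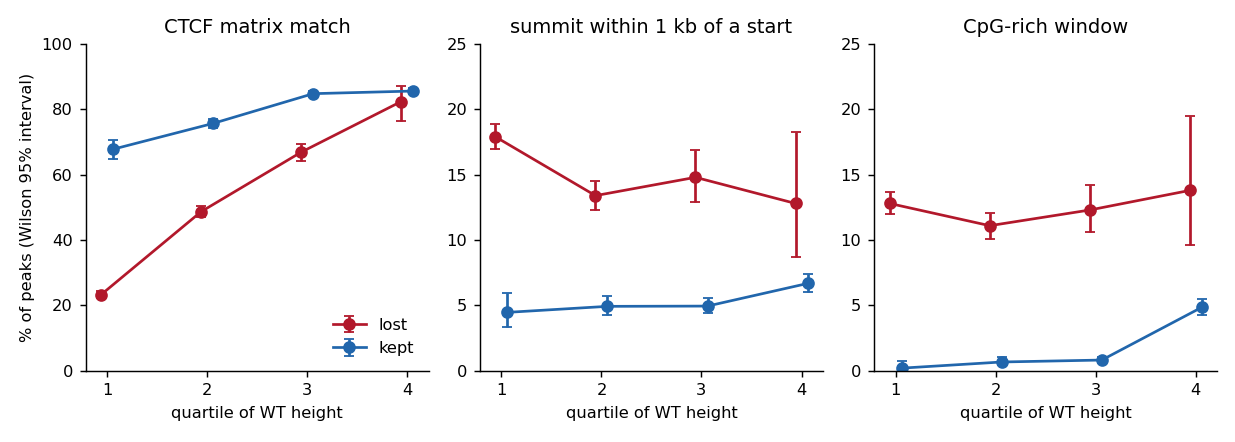
Share of peaks (vertical axes, %, with Wilson 95% intervals) with a CTCF matrix match, a summit within 1 kb of an annotated start, or a CpG-rich window, by quartile of WT height (horizontal axes), for lost (red) and kept (blue) CTCF-only peaks outside WT H3K4me3. The matrix share of lost peaks climbs from 23.3 to 82.4% and meets that of kept peaks in quartile 4, while the promoter and CpG-rich shares of lost peaks stay above those of kept peaks in every quartile.

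Within height quartiles, the lost share differed more between GC classes than between peaks with and without the motif. In height quartile 2, 25.6% of the peaks with a match and a GC content under 45% were lost (23.6 to 27.7), against 90.8% (88.0 to 93.0) of those with a match and a GC content of 55% or more. Without a match the shares were 31.2% and 92.9%. In quartile 3 the peaks with a match were lost in 3.28, 13.4 and 61.3% of cases from the lowest to the highest GC class, and those without in 3.77, 18.9 and 65.4%. Over all heights together the match made a larger difference, with 47.6% against 89.2% lost in the highest GC class, where peaks without a match were also the weaker ones. Among peaks of GC content of 55% or more in quartile 1, 98.6% with and 99.2% without a match were lost.

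The CM CTCF list as a whole held fewer GC-rich peaks. A GC content of 55% or more was found in 42.1% of the 34625 WT CTCF peaks and in 18% of the 21525 CM CTCF peaks. The 1922 CM peaks that overlapped no WT CTCF peak had a mean GC content of 42.6% ± 5.46, and 0.416% of them reached 55%. Peaks absent from the CM list were thus GC-rich, and those found only in it were GC-poor. Whether the CM and WT libraries differed in their recovery of GC-rich DNA was not tested.

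**Figure D3:**
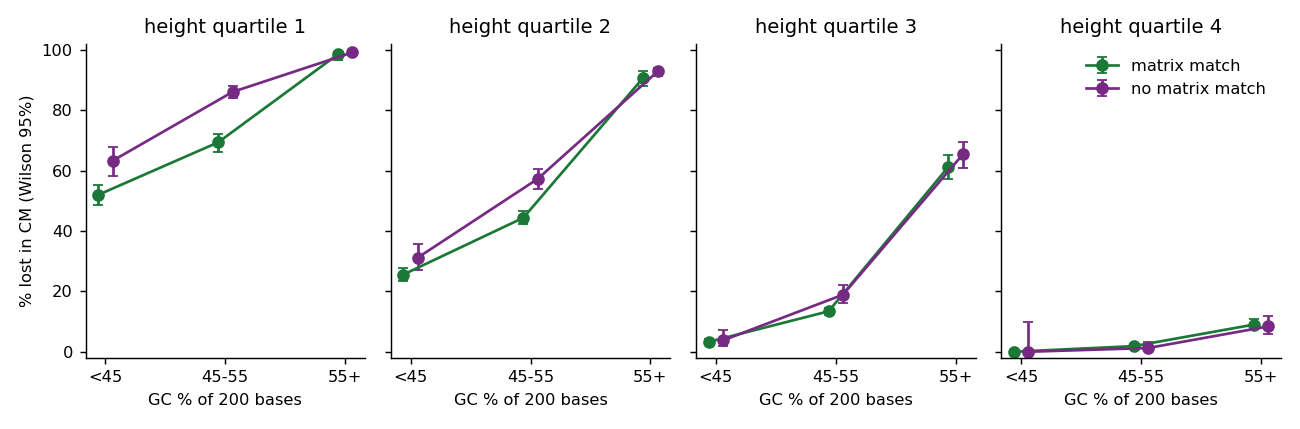
Share of CTCF-only peaks outside WT H3K4me3 that were lost in CM (vertical axis, %, Wilson 95% intervals) by GC content of 200 bases at the summit (horizontal axis), in 4 panels for the quartiles of WT height, for peaks with (green) and without (purple) a matrix match. In quartile 2 the share climbs from 25.6 to 90.8% with a match and from 31.2 to 92.9% without, and the lines lie close together.

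The lost peaks lay at annotated starts more often than the kept peaks, although H3K4me3 had been excluded by the rule. A summit within 1 kb of a transcription start was found for 1774 lost peaks (15.9%, 15.3 to 16.6) and for 5.47% of the kept peaks, a difference of 10.5 points (9.70 to 11.3). Another 1059 lost peaks (9.52%) lay in exons against 3.23% of the kept peaks, 3986 (35.8%) in introns, a difference of -4.16 points (-5.36 to -2.97), and 4309 (38.7%) between genes against 51.3%. The promoter share of lost peaks was above that of kept peaks in every quartile of height (17.9, 13.4, 14.8 and 12.8% against 4.47, 4.93, 4.95 and 6.68%). In the lost CTCF-only peaks in WT H3K4me3 it was 80.7%, so the peaks described here were mostly distal. Promoter peaks held a matrix match in 22.9% of cases (21.0 to 24.9) and exon peaks in 24.1%, against 43.4% for intron and 42.1% for intergenic peaks. In kept peaks the corresponding shares were 74.8, 73.3, 82.7 and 82.5%. Mean GC content was 61.4% in promoter peaks and 53.0% in intergenic peaks.

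The 6 highest peaks at promoters are shown because some held a matrix match and others scored under the threshold. Pias3, an inhibitor of STAT3 signalling, Lrrc24, a leucine-rich repeat protein, and Rreb1, a zinc finger transcription factor, held a matrix match (capitals).
Pias3 (chr3:96508888-96508947, minus strand): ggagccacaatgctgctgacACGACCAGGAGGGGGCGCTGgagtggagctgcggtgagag
Lrrc24 (chr15:76553147-76553206, plus strand): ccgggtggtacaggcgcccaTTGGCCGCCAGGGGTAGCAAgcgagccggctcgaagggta
Rreb1 (chr13:38038779-38038838, plus strand): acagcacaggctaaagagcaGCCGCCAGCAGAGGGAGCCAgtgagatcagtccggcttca
The other 3, at a U6 snRNA copy, at Myh14, a non-muscle myosin heavy chain, and at Fam38a, which encodes the mechanosensitive channel Piezo1, held no match, and their 100 bases at the summit are given on the plus strand with CpG in capitals.
U6 (chr15:102286515-102286614, plus strand): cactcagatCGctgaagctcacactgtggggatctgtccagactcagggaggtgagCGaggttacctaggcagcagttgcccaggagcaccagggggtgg
Myh14 (chr7:51888925-51889024, plus strand): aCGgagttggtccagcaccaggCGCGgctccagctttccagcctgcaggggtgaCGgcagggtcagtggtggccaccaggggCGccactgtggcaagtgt
Fam38a (chr8:125021986-125022085, plus strand): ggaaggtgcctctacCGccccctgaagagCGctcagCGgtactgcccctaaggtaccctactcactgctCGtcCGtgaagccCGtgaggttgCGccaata
The windows without a match scored -3.91 bits at U6, 6.14 at Myh14 and 9.39 at Fam38a, under the threshold of 11.3. A score under it does not show that the motif is absent. Heights ran from 2731 at U6 and 2584 at Myh14 over 2234 at Pias3 and 1993 at Lrrc24 to 1889 at both Rreb1 and Fam38a. The summit lay 84 bases upstream of the Rreb1 start and 68 bases downstream of the Fam38a start, and 429 to 826 bases from the start in the other 4. At Lrrc24 the peak was overlapped by CM H3K4me3 and CM Pol2 peaks and by no WT Pol2 peak, and the other 5 had none of these. A WT H3K4me3 peak lay only 230 bases from the Lrrc24 peak.

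The lost peaks lay nearer to other CTCF peaks. A kept CTCF peak lay within 1 kb of 1867 lost peaks (16.8%, 16.1 to 17.5), and another kept peak within 1 kb of 6.01% of the kept peaks. These neighbours of kept peaks were weak (median height 137) and held a matrix match in 11.4% of cases (9.99 to 12.9), against 43.1% (42.1 to 44.1) of the other 9261. The authors divided CTCF peaks into sub-peaks, and whether such neighbours are parts of 1 broad enrichment was not tested.

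The lost peaks were spread over all chromosomes. On the autosomes, between 38.0% (chromosome 3, 35.1 to 41.0) and 50.6% (chromosome 17, 47.8 to 53.3) of the CTCF-only peaks outside H3K4me3 were lost. On the X chromosome, which is transcriptionally silenced in meiosis, 200 of 529 were lost (37.8%, 33.8 to 42).

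Pol2 occupancy at the lost sites was sparse in both genotypes. A WT Pol2 peak overlapped 342 lost peaks (3.07%, 2.77 to 3.41) and 2.80% of the kept peaks, a difference of 0.276 points whose interval includes 0 (-0.139 to 0.699). In CM it was 605 (5.44%, 5.03 to 5.87) against 3.65%, a difference of 1.79 points (1.27 to 2.31). A Pol2 peak in CM but not in WT was found at 356 lost peaks (3.20% against 1.89%), and one in WT but not in CM at 93 (0.836% against 1.04%). Pol2 peaks were gained more often than lost over all WT CTCF peaks too, at 4.01% against 1.14%. The lists held 25192 WT and 28407 CM Pol2 peaks that covered 62.3 and 61.6 Mb.

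A pair of the highest lost peaks under a WT Pol2 peak is shown as examples of the rare sites with polymerase and without an overlapping H3K4me3 peak, with the matrix match in capitals.
intergenic, nearest start SNORA17 (chr9:77854628-77854687, minus strand): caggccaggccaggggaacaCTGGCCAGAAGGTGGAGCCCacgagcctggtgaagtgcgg
Chd5 intron (chr4:151717544-151717603, plus strand): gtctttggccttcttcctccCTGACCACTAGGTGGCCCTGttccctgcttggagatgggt
Their heights were 1816 and 1686. Chd5 encodes a chromatin remodeller that is expressed in developing spermatids. A Pol2 peak was also listed in CM at both. The nearest WT H3K4me3 peak lay 23241 bases from the first and only 326 bases from the Chd5 site.

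A CM H3K4me3 peak overlapped 584 of the lost peaks (5.25%, 4.85 to 5.68) and 2.10% of the kept peaks, a difference of 3.15 points (2.68 to 3.63). None of either class was in a WT H3K4me3 peak, by the rule. Of the 584, 382 lay at promoters (65.4%), 331 had a CpG-rich window (56.7%) and 121 a matrix match (20.7%). A WT H3K4me3 peak lay within 1 kb of 173 (29.6%, 26.1 to 33.4), and of 36.1% of the kept peaks with CM H3K4me3. The CM H3K4me3 peaks were wider than those of WT (median width 1598 against 728 bases) and fewer (20432 against 34347), and they covered 38.0 against 34.5 Mb. The part of peak width in this difference was not tested.

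**Figure D4:**
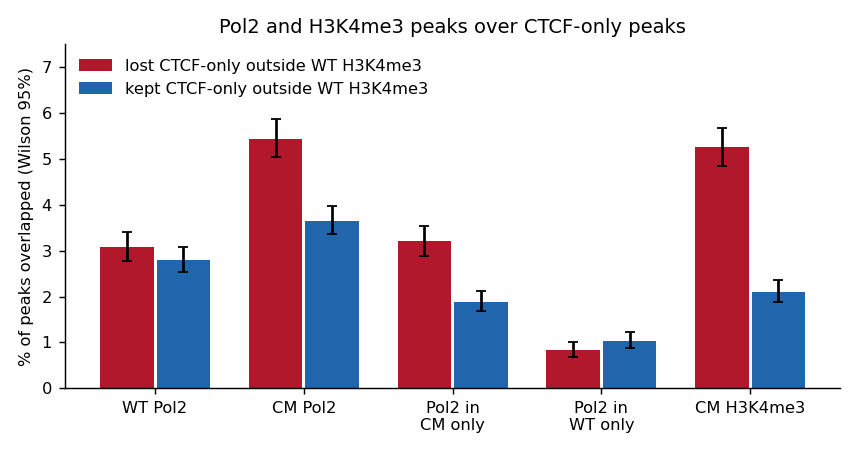
Share of lost (red) and kept (blue) CTCF-only peaks outside WT H3K4me3 that a peak of each list overlapped (vertical axis, %, bars from 0, error bars Wilson 95% intervals). The WT Pol2 bars (3.07 and 2.80%) have overlapping intervals, and the CM Pol2 bars (5.44 and 3.65%) and CM H3K4me3 bars (5.25 and 2.10%) do not.

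Ctcfl, the gene that encodes BORIS and that is inactivated in CM mice, held 3 lost peaks. They had heights of 127, 1053 and 2700 and lay at chr2:172930554-172930934, chr2:172932556-172933982 and chr2:172938567-172939903. The gene spans chr2:172919110-172945026 on the minus strand. Ctcfl also held a kept CTCF/BORIS peak of height 4263, and a lost CTCF/BORIS peak of height 488 lay at its promoter. The strongest of the 3 lay in an annotated exon and held a match of 17.5 bits. The gene 1300015D01Rik covers the same position, so the exon labelled Ctcfl below may belong to either gene.
Ctcfl exon (chr2:172939481-172939540, minus strand): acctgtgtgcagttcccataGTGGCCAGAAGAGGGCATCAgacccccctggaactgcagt
Since CM mice carry an inactivated Ctcfl gene, absence of these 3 peaks and absence of their DNA cannot be told apart with these lists. No member lay at Ctcf. Of the other genes at loci that the study displays, Katnal1, a katanin subunit needed for sperm production, had a member of height 366 at its promoter and Kcnip2, a potassium channel-interacting protein, 1 of height 101 in an intron.

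Gene families with clustered CTCF sites were examined by counting genes that had a lost peak in the gene or within 2 kb. Of all 22225 annotated protein-coding genes 21.7% had a lost peak and 21.9% a kept CTCF-only peak outside H3K4me3. Of the 25 clustered protocadherin genes of the annotation, whose alternative promoters are known CTCF targets, 20 had a lost peak (80.0%) and 14 a kept one (56.0%). Nested genes share peaks there, so these are not independent. The highest were a peak of height 1653 in Pcdhgc5, overlapped by Pol2 in both genotypes, 1 of height 957 in Pcdha11 and 1 of height 705 in Pcdhb19. Of 39 Hox genes 14 had a lost and 8 a kept peak, and of 46 keratin genes 10 had a lost and 1 a kept peak. The keratin peaks were weak, with heights of 281 in Krt75, 192 in Krt5 and 181 in Krt82, each in an exon and with a matrix match. Lost peaks were found at 13 of 1685 olfactory and vomeronasal receptor genes, at 3 of 42 beta defensin genes and at 0 of 32 Rhox genes, and kept peaks at 15, 3 and 0.

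The strongest Hox and beta defensin sites both scored under the matrix threshold and differed in CpG density. The peak between Hoxd12 and Hoxd13 (height 1366) was CpG-dense, whereas that at the promoter of Defb29 (height 1399) was not. The 100 bases at each summit are given on the plus strand with CpG in capitals, and neither reached the matrix threshold (11 and 10.5 bits).
Hoxd12 (chr2:74511161-74511260, plus strand): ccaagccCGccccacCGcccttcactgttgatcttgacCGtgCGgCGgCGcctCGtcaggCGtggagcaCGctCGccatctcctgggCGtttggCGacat
Defb29 (chr2:152365864-152365963, plus strand): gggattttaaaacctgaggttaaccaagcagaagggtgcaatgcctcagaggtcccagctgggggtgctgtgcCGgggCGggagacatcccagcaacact

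Of 43 imprinted genes 14 had a lost and 8 a kept peak. The highest lost peak, of height 392, lay at a start of Gnas, which encodes the stimulatory G protein subunit, within 2 kb of its imprinted antisense transcript Nespas. It held a match of 15.5 bits, shown here because CTCF binding at imprinted loci is known to depend on such sites.
Gnas (chr2:174109645-174109704, minus strand): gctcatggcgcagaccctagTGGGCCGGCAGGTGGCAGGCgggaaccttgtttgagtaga
The next was a peak of height 314 in an intron of Kcnq1, a potassium channel gene of an imprinted domain. Of 38 genes of meiotic recombination and synapsis 2 had a lost peak (Hfm1 and Mei1, heights 120 and 107) and 4 a kept one. Of 55 genes of spermatid differentiation 8 had a lost peak (the highest in Rnf17, 586, Zpbp2, 473, and Brdt, 273) and 8 a kept one. Of 22 genes for CTCF partners and cohesin the only 1 with a lost peak was Ctcfl itself, and 4 had a kept CTCF-only peak.

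RNA-seq was used to ask whether genes with a lost peak at the promoter differed in expression between CM and WT. Library totals ran from 10437683 to 98545423 counts. Levels are given as CPM, which are counts scaled to the library total after its adjustment by TMM, not to the raw total. In whole testis Ctcf was at 47.0, 39.9 and 40.7 CPM in the 3 WT libraries. In CM it was at 27.4, 26.9 and 24.0 CPM, with no overlap. Ctcfl had 18, 9 and 8 counts in WT and 8, 2 and 2 in CM. In purified cells the CM label did not go with less Ctcf RNA, and CM replicate 1 stood far above the rest in both cell types. It was at 49.6, 30.7 and 28.9 CPM in WT and at 177, 46.9 and 39.9 CPM in the libraries labelled CM of round spermatids, and at 34.0 and 32.2 against 83, 32.9 and 31.9 CPM in spermatocytes. Ctcfl was at 2.90, 5.02 and 3.32 CPM in WT round spermatids and lower, at 2.63, 1.78 and 1.12 CPM, in every library labelled CM, and it was at 2.15, 2.25 and 2.48 CPM in BORIS KO. Directions from the purified cells are therefore given for the libraries as labelled.

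Cell markers moved in whole testis. Summed levels of 7 Leydig cell markers ran from 367 to 636 CPM in WT and from 1879 to 3773 in CM, those of 7 Sertoli cell markers from 209.6 to 352 and from 546 to 1187, and those of 7 macrophage markers from 62.6 to 159.7 and from 206 to 615. Called higher were 5 of the Leydig, 4 of the Sertoli and 6 of the macrophage markers, and 2 of 7 peritubular and endothelial markers, whose sum ran from 22.8 to 27.7 and from 42.3 to 86.2 CPM. The sum of 10 germ cell markers ran from 13541 to 20997 CPM in WT and from 4461 to 12349 in CM, but only 1 of the 10 was called lower and 0 higher. In bulk tissue fewer cells of a type and less RNA per cell cannot be told apart, and the part of the somatic markers in the whole testis results below was not tested. In round spermatids no marker was called and the Leydig sum stayed between 0.980 and 1.84 CPM in both genotypes, while the peritubular and endothelial sum ran from 5.38 to 7.85 CPM in WT and from 8.37 to 12.9 in CM.

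Among genes with a lost peak at the promoter, more were called higher than lower in CM whole testis. An annotated start within 1 kb of a lost summit was found for 1740 genes, of which 1311 were in the count table and 1039 passed the filter on low counts. The median WT level of the 1311 was 0.698 to 0.922 CPM per kb of exon in the 3 libraries, against 0.892 to 1.30 for genes with a kept peak, 1.18 to 1.46 over all genes and 6.28 to 7.36 for genes with a lost CTCF-only peak in H3K4me3. A mean WT level under 1 CPM was found for 30.1% of them and for 33.9% of all genes. Called higher by edgeR (adjusted p < 0.05 and a fold change over 2) were 277 of 1039 (26.7%), against 15.3% of all 16378 genes tested, and lower 50 (4.81%), against 5.90% of all genes. The median log2 fold change was 0.46, against 0.00 over all genes. In the class most like them the shares were close to these, as 28.8% of the 462 tested genes with a kept peak at the promoter were higher and 5.84% lower, with a median of 0.42. Of the 1740 genes 130 also had such a kept peak. Genes with a lost CTCF-only peak in H3K4me3 were higher in 11.8% and lower in 4.08% of cases.

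The number of calls depended on which libraries were kept, over all genes as well as among these. Without WT replicate 2 there were 1 higher and 1 lower gene, against 4 and 7 over all genes tested. Without WT replicate 3 there were 0 and 0, against 1 and 2. Without CM replicate 3 there were 1 and 0, against 2 and 2. Without WT replicate 1 there were 134 and 20, against 1360 and 454. Leaving out CM replicate 1 gave 223 and 47, against 2060 and 704. Leaving out CM replicate 2 gave 354 and 52, against 3303 and 1080. At an adjusted p < 0.001 edgeR called 0 of these genes in either direction. DESeq2 called 301 and 63 at 0.05, against 2749 and 1288 of all 16378 genes. An unadjusted p (edgeR) under 0.05 was found for 522 of the 1039 and for 6789 of all 16378 genes.

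Within the set, genes whose lost promoter peak was overlapped by CM H3K4me3 were called higher in 115 of 345 cases (33.3%) and lower in 8, with a median log2 fold change of 0.80. The other promoters gave 174 of 722 (24.1%) and 42, with a median of 0.31, and a gene with several lost peaks can be in both. Where a Pol2 peak was listed in CM only, 50 of 141 genes were higher (35.5%) and 4 lower (2.84%). Over all genes tested in whole testis, 15.3% were higher and 5.90% lower. Genes with a kept peak were not divided by these marks, and the part of the somatic markers was not tested. Genes whose lost peak held a matrix match were higher in 22.1% and those without in 28.7%.

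The genes described next are the 10 with the largest changes in each direction among the genes called on these same libraries. Because of this choice, separate WT and CM libraries are no finding for these genes. Among those higher in CM, Gadd45a, a growth arrest and stress response gene, was at 0.236, 0.388 and 0.430 CPM in WT and at 3.54, 2.81 and 5.68 CPM in CM. The log2 fold change was 3.54 (SE 0.46, edgeR adjusted p = 0.0151). The lost peak (height 342) lay 2 bases from the start under CM Pol2 and CM H3K4me3 peaks, and 1218 bases from a WT H3K4me3 peak. Gadd45a was at 1.23, 0.851 and 0.790 CPM in CTCF HET and at 1.10, 1.11 and 1.54 in BORIS KO, between WT and CM. Grn, which encodes the lysosomal factor progranulin, was at 8.55, 6.86 and 5.24 CPM in WT and at 79.4, 27.9 and 63.3 in CM (log2 fold change 3.00, SE 0.39, adjusted p = 0.0151). CM replicate 2 was the lowest of the CM libraries for each of the 10 genes higher in CM.

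Cldn10, a claudin of tight junctions, was at 0.531, 1.16 and 0 CPM in WT and at 11.2, 5.01 and 10.7 in CM (log2 fold change 3.90, SE 0.73, adjusted p = 0.0159). Sybu, which links cargo to kinesin, was at 2.54, 1.04 and 1.55 CPM in WT and at 38.4, 5.62 and 12.9 in CM, and Slc4a3, an anion exchanger, at 5.10, 2.98 and 3.01 and at 79.9, 14.1 and 19.3. CM replicate 1 was far above the other CM libraries for both, and also for Kcnk1, a leak potassium channel (76.9 against 7.03 and 17.7 CPM). The predicted gene Gm5424, whose reads may be shared with near-identical copies, was at 12.7 to 15.2 CPM in WT and 91.9 to 186 in CM. The remaining 3 were Sds, a serine-degrading enzyme (log2 fold change 3.18), Aldoc, a glycolytic aldolase (2.98), and Slc25a22, a mitochondrial glutamate carrier (2.94).

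Among the genes lower in CM, Rarb, a retinoic acid receptor, was at 2.24, 4.40 and 2.32 CPM in WT and at 0.452, 0.611 and 0.778 in CM (log2 fold change -2.36, SE 0.44, adjusted p = 0.0159). Fmn2, an actin-nucleating formin, was at 12.1, 12 and 15.8 CPM in WT and at 2.16, 4.22 and 4.2 in CM (log2 fold change -1.96, SE 0.36, adjusted p = 0.0159). Both were also lower than every WT library in the BORIS KO libraries (1.11 to 1.81 CPM for Rarb, 4.98 to 6.6 for Fmn2). Kcnab2, a potassium channel subunit, was at 139.9, 28.2 and 100.3 CPM in WT and at 25.6, 23.4 and 17.5 in CM. Its WT replicate 2 stood nearer to CM than to the other WT libraries. Fam83e had the highest lost peak of the 10 (856), which lay nearer to the start of Rpl18, a ribosomal protein gene. This peak lay under Pol2 peaks of both genotypes and a CM H3K4me3 peak, and a WT H3K4me3 peak was only 223 bases away. The remaining 7 were Fam83e (log2 fold change -1.85), the monooxygenase-like gene Moxd1 (-1.82), D630042P16Rik (-1.77), the predicted gene Gm2897 (-1.70), the adhesion molecules Pvrl4 (-1.69) and Dscaml1 (-1.64), and the erythroid transcription factor Nfe2 (-1.57). The adjusted p of the 20 genes ran up to 0.0317 in the fit of WT and CM, and for Kcnk1 between 0.00660 and 0.0986 over its 11 alternatives.

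The windows searched at the 3 largest changes in each direction are given because the lost peaks there differ from the strong sites shown above. Sybu held a matrix match (capitals).
Sybu (chr15:44619589-44619648, plus strand): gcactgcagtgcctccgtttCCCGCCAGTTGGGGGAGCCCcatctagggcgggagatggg
The other 5 held none, and the 100 bases at the summit are given on the plus strand with CpG in capitals.
Cldn10 (chr14:119254588-119254687, plus strand): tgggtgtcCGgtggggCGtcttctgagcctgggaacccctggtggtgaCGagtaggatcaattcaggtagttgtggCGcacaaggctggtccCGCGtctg
Gadd45a (chr6:66987348-66987447, plus strand): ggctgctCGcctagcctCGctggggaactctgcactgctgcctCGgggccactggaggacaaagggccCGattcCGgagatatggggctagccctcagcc
Rarb (chr14:17408129-17408228, plus strand): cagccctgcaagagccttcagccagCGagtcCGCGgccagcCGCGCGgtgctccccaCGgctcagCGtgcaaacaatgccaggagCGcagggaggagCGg
Kcnab2 (chr4:151799702-151799801, plus strand): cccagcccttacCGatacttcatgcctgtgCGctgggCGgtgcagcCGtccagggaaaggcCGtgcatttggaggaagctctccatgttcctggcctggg
Fmn2 (chr1:176432182-176432281, plus strand): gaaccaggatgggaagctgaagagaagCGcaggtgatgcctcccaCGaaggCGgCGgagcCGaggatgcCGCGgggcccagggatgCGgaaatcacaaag
Their heights were between 100 and 342, and they held 5 to 10 CpG.

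**Figure D5:**
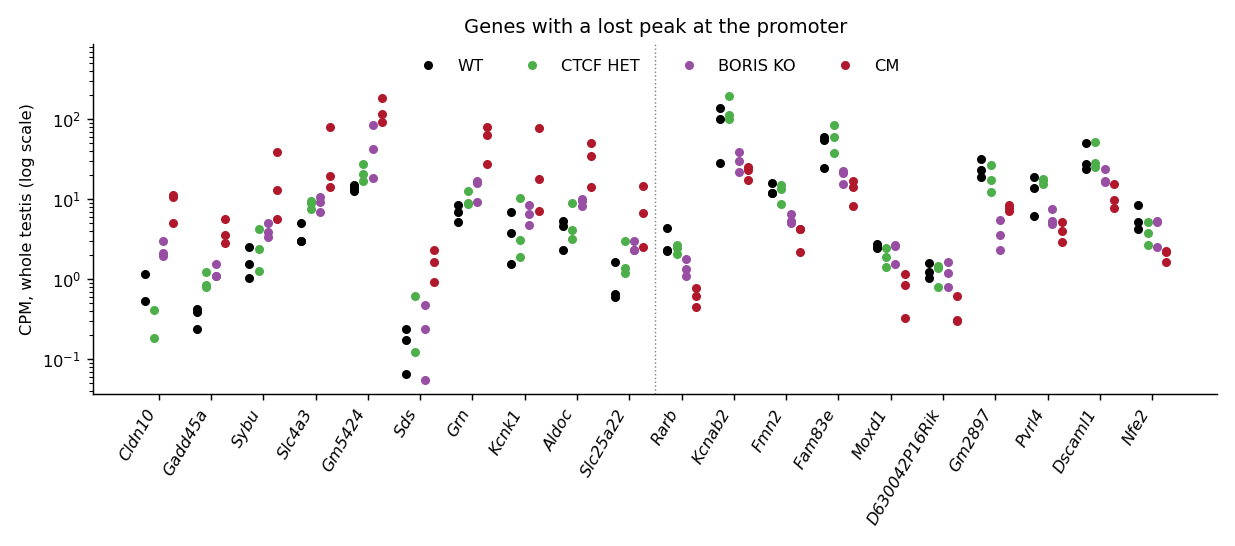
CPM in whole testis (vertical axis, log scale) of the 20 genes with a lost peak at the promoter and the largest changes, each point 1 library of WT (black), CTCF HET (green), BORIS KO (purple) or CM (red), genes higher in CM left of the dotted line. Libraries at 0 (WT and CTCF HET replicate 3 of Cldn10, CTCF HET replicate 3 of Sds) are not drawn, and the CM libraries lie apart from the WT libraries for each gene.

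Calls among the listed gene families are set beside those over all protein-coding genes. Among genes with a lost peak in the gene or within 2 kb, 773 of 3943 tested protein-coding genes were higher and 211 lower, and over all tested protein-coding genes 2401 of 15030 were higher and 861 lower. Over all tested genes of a list, with or without a lost peak, 4 of 17 protocadherin, 6 of 31 imprinted and 4 of 14 Hox genes were higher and none was lower. For protocadherins 3 of 13 were higher, Pcdhb17 (log2 fold change 1.80), Pcdhb22 (1.52) and Pcdhb3 (2.19), all at under 1 CPM in each WT library. For imprinted genes 2 of 13 were higher, Gnas (1.57) and the noncoding RNA Meg3 (2.15). Gnas was at 67.9, 47.6 and 51.4 CPM in WT and at 223, 84.6 and 202 in CM, and reads of overlapping antisense transcripts cannot be told apart since the use of strand in counting is not stated. For spermatid differentiation 2 of 8 were lower, the heat shock protein gene Hspa1l (-1.25) and the sperm tail gene Odf2 (-1.07), while 24 of all 55 listed genes were lower. These 7 genes were named after their values were seen. None of the 4 tested Hox genes with a lost peak was called, and Katnal1 (log2 fold change -0.70, adjusted p = 0.0496) did not pass the fold threshold.

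In the purified cells these genes were rarely called. In round spermatids 0 of 872 tested genes with a lost promoter peak were higher by edgeR, against 0.00654% of all genes. Lower were 0, against 0% of all genes. An unadjusted p (edgeR) under 0.05 was found for 163 of the 872 and for 3136 of all 15298 genes. The median log2 fold change of the 872 was 0.12. DESeq2 called 64 higher and 13 lower, and 986 and 412 of all 15298 genes. Without CM replicate 1, the library with 177 CPM of Ctcf, edgeR called 19 and 11, and 380 and 431 of all 15813 genes. In spermatocytes 2 of 864 were higher, against 0.339% of all genes, and 0 lower, against 0.0949% of all genes. An unadjusted p (edgeR) under 0.05 was found for 206 of the 864 and for 4391 of all 14747 genes. The median log2 fold change of the 864 was -0.08. DESeq2 called 43 and 22, and 893 and 256 of all 14747 genes. The 2 genes, named after their values were seen, were Kat2b, a histone acetyltransferase, at 0.800 and 0.741 CPM in WT and at 5.83, 5.15 and 9.41 CPM in CM, and Slc16a6, a monocarboxylate transporter family member, at 2.55 and 2.71 and at 7.22, 10.2 and 8.74 CPM. Without CM replicate 1, which had 83 CPM of Ctcf, 54 were higher and 69 lower, against 1232 and 931 of all 14317 genes. The authors depleted whole testis RNA of rRNA and sequenced it on Ion Proton. From purified cells they selected poly(A) RNA and sequenced it on Illumina. Preparation and library method therefore cannot be told apart, and the difference between whole testis and purified cells was not tested.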

How the data were processed

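Deposited files were used without realignment. The authors mapped ChIP-seq reads on mm9 (Bowtie2). MACS or MACS2 gave their peaks, and they split CTCF and BORIS peaks with PeakSplitter. For CTCF and BORIS they deposited each peak's summit and height, a signal of unstated normalization, and for Pol2 and H3K4me3 a MACS score, which was not used. RNA-seq files hold raw counts per gene that the authors deposited without normalization. Counting tool and strand use are not given in the sources used here. ChIP-seq of purified cells was not analysed here.

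The members and gene lists were chosen with earlier results of these data known. Peaks overlapped at 1 bp or more. Starts, exons and introns were taken from the GENCODE annotation of the mm9 assembly, and 93.9% of the 23284 gene symbols matched it. The weight matrix was refined in 3 rounds from the 2000 highest WT CTCF peaks (1777 sites in the last), and a match needed a score above the 99th percentile of windows 2 kb away. Counts were filtered with filterByExpr (10 counts per library, 15 in total), scaled by TMM and tested with edgeR 4.0.16 (quasi-likelihood, robust) in R 4.3.3 between WT and CM of 1 tissue, with Benjamini-Hochberg adjustment, and the test and the overlap function were tested on simulated data. DESeq2 1.42.0 was an alternative. Replicates are separate preparations of 4 mice. The named genes were the 10 largest changes each way among called genes with a start within 1 kb of a lost summit, genes the study displays at loci, and the 3 with the highest lost peak of each list. The named regions were the 6 highest peaks, the 6 highest at promoters and the 3 highest under WT Pol2, of which 1 is not reported here. In whole testis, deviations of same-numbered WT and CM libraries correlated at 0.564, 0.175 and 0.28, so the numbers were read as pairing them. In round spermatids (0.098, 0.0105 and 0.0514) and spermatocytes (-0.139 and -0.0385) they were not. The main fit of whole testis left this pairing out, and a fit with replicate number as a block is given below as an alternative.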

Additional observations from a re-analysis of the deposited data

Results flagged for a closer look

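For the named genes Fam83e, Gm2897, Gnas, Aldoc and Rnf17 every CM library lay above every WT library in 1 preparation and below in another, as labelled. The share of all genes that do so was not counted. With 2 or 3 libraries per group such separation can also arise by chance. These opposite directions were not tested against each other, and the purified cell libraries labelled CM did not have lower Ctcf. Library method and sequencing platform also differed between whole testis and purified cells. Fam83e had log2 fold changes of -1.85 in whole testis, -1.52 in round spermatids and 2.60 in spermatocytes, where it was at 1.05 and 0.946 CPM in WT. Gm2897 had -1.70 in whole testis, 1.12 in round spermatids and 2.05 in spermatocytes, with at most 1.91 CPM in any purified WT or CM library. Gnas had 1.57 in whole testis, -0.98 in round spermatids and 0.81 in spermatocytes. Aldoc had 2.98 in whole testis and -0.84 in spermatocytes, where it stayed under 1 CPM. Rnf17, which takes part in spermatid differentiation, had -0.56 in whole testis, -0.36 in round spermatids and 0.42 in spermatocytes, and none of the 3 passed the call rule. In the purified cells none of these 5 genes passed it, with adjusted p (edgeR) of 0.152 and 0.0703 for Fam83e, 0.320 and 0.334 for Gm2897 and 0.201 and 0.168 for Gnas in round spermatids and spermatocytes, and 0.368 for Aldoc in spermatocytes.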

How the results depend on the processing

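The number of lost peaks was 11346 at an overlap of 50% of the shorter peak, 10510 without H3K4me3 within 1 kb and 11128 with merged peaks. With the CTCF and BORIS lists cut to their higher 50% of peaks it was 5745, with 9.94% at promoters and 57.2% with the core pattern. Without H3K4me3 within 1 kb, 14.8% lay at promoters and 2.31% under WT Pol2 peaks, and at the 50% overlap 3.59% did. The promoter share was 22.4% at 2 kb and 28.1% at 3 kb. The pattern share was 33.5% in 200 bases, 36.8% in whole peaks and 37.8% with the matrix. Soft-masked repeats could not be run, since the reference given is not masked.

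For genes with a lost promoter peak in whole testis, leaving out 1 library gave 0 to 354 higher and 0 to 52 lower. Over all genes it gave 1 to 3303 and 2 to 1080. For the genes with a lost promoter peak, adjusted p < 0.001 gave 0 and 0. With the replicate block there were 335 higher and 64 lower, against 3002 and 1418 of all 16378 genes. The pairing changed no call among the 20 named genes, none of which reversed under the alternatives run. Without WT replicate 3 none of the 20 passed. In round spermatids DESeq2 gave 64 and 13, 4 genotypes in 1 fit 86 and 34, and leaving out 1 library 0 to 19 and 0 to 11. Over all genes 4 genotypes gave 1217 and 770, and leaving out 1 library 0 to 380 and 0 to 431. In spermatocytes DESeq2 gave 43 and 22, 4 genotypes 14 and 12, and leaving out 1 CM library 0 to 54 and 0 to 69. Over all genes 4 genotypes gave 326 and 189, and leaving out 1 CM library 0 to 1232 and 0 to 931. For the genes with a lost promoter peak, the 2 kb promoter gave 2 and 1, and adjusted p < 0.001 gave 0 higher. The causes were not tested. Single peak lists without depth limit every peak comparison to counting error.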
